A study of Mus musculus with 6 samples.

Results

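The genes described here are 42 genes of protein folding and of the stress pathways that control it, in mouse embryonic stem cells with and without knockdown of Trim71. They were taken from a list of names, in 3 classes: 16 heat shock genes of the cytosol and mitochondria, 9 chaperone and stress genes of the endoplasmic reticulum (ER), and 17 genes of the amino acid response. A gene counted as measured where at least 1 probe set of the array carried its symbol and no other. That held for 39 of the 42, out of 19937 genes in all; Hspa1b, Hsp90ab1 and Hsf1 had no such probe set and have no value here.

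Trim71, also called Lin41, belongs to a family of RING finger proteins that bind messenger RNA, and is found in pluripotent cells. RNA was compared on 3 control and 3 knockdown arrays, each with its own sample of mouse embryonic stem cells. Per the labels' protocols, knockdown cells had been transfected with 3 siRNAs against Trim71 and control cells with a non-targeting siRNA, 72 h before harvest. The sample labels describe the controls only as wild-type, and the title as parental, so it is not certain that they were transfected. A transfected knockdown leaves part of the transcript, and the labels name neither the cell line nor whether the replicates were separate cultures. The spread behind every p-value is thus that among these 6 samples and may be technical. The main test, limma, draws each gene's spread toward a value common to all genes. Its SEs and p-values thus do not rest on that gene's arrays alone. In such bulk RNA, fewer cells that express a gene and less of its RNA per cell cannot be told apart. Values are log2 signals of probe sets after RMA, and the number of arrays limits their precision. A signal is compared only with the same probe set on other arrays, since probe sets differ in how brightly they report a transcript.

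Trim71 itself was at 34.9% of its control signal (log2 difference −1.52 ± 0.045 SE, limma adjusted p = 2.8e-05). For the labelled cell type, the probe sets of 10 stem cell markers had mean log2 signals of 9.87 to 12.33. Those of 8 fibroblast markers read 3.34 to 7.07, of 6 primitive endoderm markers 5.05 to 7.10 and of 6 trophectoderm markers 4.83 to 9.17; since probe sets differ in brightness, these ranges do not rank the transcripts. The mean of the fibroblast list on an array was 5.54 to 5.64 in controls and 5.48 to 5.68 in knockdown cells, with 0 of 8 called. For primitive endoderm it was 6.34 to 6.42 and 6.28 to 6.38, with 0 of 6 called, and for trophectoderm 6.75 to 6.81 and 6.80 to 6.88, with 1 of those 6, Tfap2c, called higher. The stem cell list went from 11.34 to 11.36 in controls to 11.45 to 11.50, with 2 of 10, Zfp42 and Fgf4, called higher. For 7 of the 10 all knockdown values lay above all control values, and for 0 below. Of all genes, 5.53% were called and 25.5% had groups that did not overlap. The part of these list shifts in the results was not tested. Knockdown array 3 stood apart, with an upper quartile of 8.42 against 8.32 to 8.35 on the other arrays, so results that rest on it are given without it too.

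Cells answer unfolded protein through separate circuits. In the cytosol, the transcription factor HSF1 is held back by chaperones and, once freed, binds heat shock elements in the promoters of Hsp70, Hsp90, Hsp40 and small heat shock protein genes. The sensors of the ER are IRE1, ATF6 and PERK. IRE1, through the factor XBP1, and ATF6, as a factor itself, raise chaperones at ER stress response elements. PERK and the amino acid sensor GCN2 both phosphorylate the initiation factor eIF2, which favours translation of ATF4, and ATF4 with C/EBP partners acts at C/EBP-ATF response elements of genes for amino acid synthesis and uptake. Mouse embryonic stem cells are known for high levels of several chaperones and for their reliance on threonine and one-carbon metabolism.

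Promoter sequences from RefSeq (GRCm38.p6; 250 bases before to 50 after each annotated start) were held for 35 of the 42 members. Those without one were Hspa8, Hsp90aa1, Hsp90ab1, Cryab, Hsf1, Cth and Aldh1l2. Both strands were searched for 4 kinds of element. A heat shock element of 3 units was GAANNTTCNNGAA or TTCNNGAANNTTC, and one of 2 units, which also lies inside each 3-unit match, was GAANNTTC or TTCNNGAA. The ER stress response element was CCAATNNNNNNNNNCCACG, the C/EBP-ATF response element TGATGNAA, and the unfolded protein response element TGACGTGG. The 3-unit heat shock element lay in windows of 3 of 11 heat shock members, Hsph1, Hspd1 and Hspe1, and in those of 0.662% of all 27025 genes with a window (0.603% of 32851 windows). The 2-unit form lay in 8 of the 11, against 17.0% of all genes (15.1% of windows). The ER element lay in 4 of 9 ER members, Hspa5, Hsp90b1, Calr and Canx, against 0.137% of all genes (0.119% of windows). The C/EBP-ATF element lay in 7 of 15 amino acid response members, Asns, Atf3, Chac1, Nupr1, Slc7a11, Trib3 and Vldlr, and in Herpud1 of the ER class, against 4.51% of all genes (3.97% of windows). The unfolded protein response element was in 0 member windows, against 0.714% of all genes (0.676% of windows). A match describes letters only.

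The stretches below are examples of each element: Hsph1 is the called member, Hspe1 shares its kind of element, Hspa5 encodes the main ER chaperone and Calr had the highest ER value. Asns, Chac1 and Nupr1 are amino acid response genes with knockdown arrays 1 and 2 below all controls and array 3 not. Capitals mark the matched element. Hsph1 is given by 2 stretches, chr5:149636337-149636399 and chr5:149636287-149636308 (minus strand). The others are Hspe1 at chr1:55088029-55088106 (plus), Hspa5 at chr2:34771995-34772073 (plus), Calr at chr8:84847045-84847123 (minus), Asns at chr6:7693210-7693262 (minus), Chac1 at chr2:119351019-119351086 (plus) and Nupr1 at chr7:126625543-126625610 (minus).
Hsph1, before the start, 2 units: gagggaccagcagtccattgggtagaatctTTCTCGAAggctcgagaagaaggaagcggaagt
Hsph1, after the start, 3 units: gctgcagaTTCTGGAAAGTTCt
Hspe1, 3 units: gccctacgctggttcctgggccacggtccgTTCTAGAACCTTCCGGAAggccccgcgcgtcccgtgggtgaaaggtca
Hspa5, ER element: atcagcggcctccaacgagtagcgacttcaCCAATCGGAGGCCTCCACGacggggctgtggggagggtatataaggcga
Calr, ER element: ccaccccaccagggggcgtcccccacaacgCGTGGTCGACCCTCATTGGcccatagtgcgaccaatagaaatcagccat
Asns, C/EBP-ATF element: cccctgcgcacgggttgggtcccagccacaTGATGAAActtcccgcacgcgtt
Chac1, C/EBP-ATF element: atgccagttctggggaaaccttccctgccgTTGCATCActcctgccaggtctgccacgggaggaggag
Nupr1, C/EBP-ATF element: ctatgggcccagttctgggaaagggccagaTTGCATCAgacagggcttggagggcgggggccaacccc

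Counting the start as base 1 and the base before it as −1, the 3-unit element of Hsph1 lay at bases 37 to 49, and its 2-unit element upstream at −33 to −26. Hsph1 has a second annotated start nearby, from which the same 3-unit element lies at bases 16 to 28. In Hspe1 2 overlapping matches spanned −89 to −72. Hspd1 and Hspe1 are transcribed away from each other and their windows overlap, so this is 1 stretch of DNA counted for both. In Asns the C/EBP-ATF element, at −23 to −16, overlaps a 2-unit heat shock match at −19 to −12. Calr, Chac1 and Nupr1 carry their elements on the opposite strand, which is why the capitals read CGTGG or TTGCATCA.

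**Figure D1:**
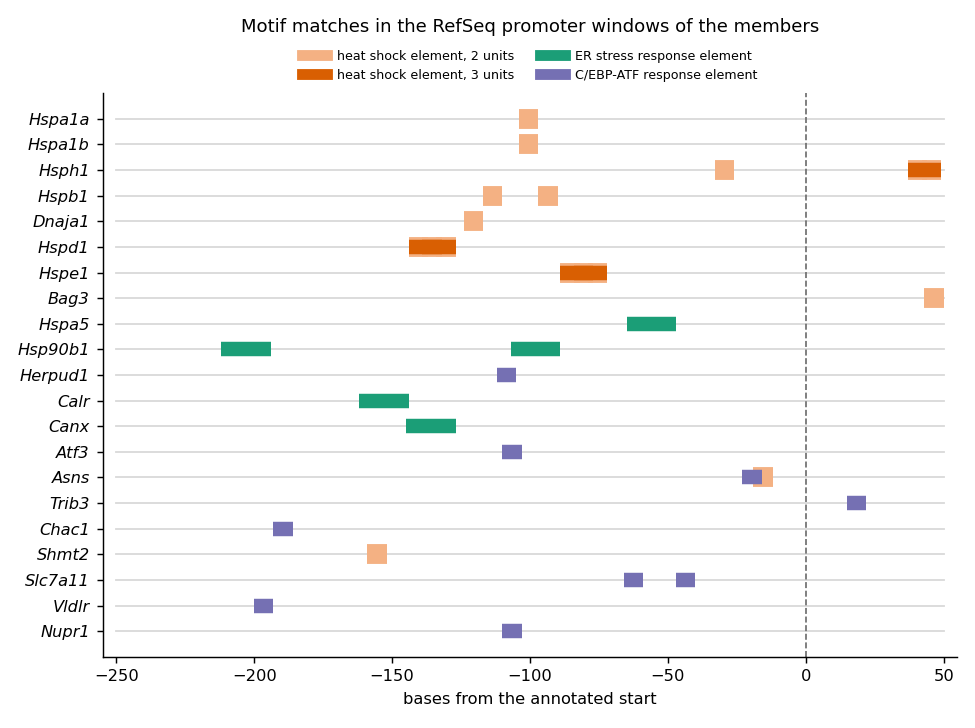
Position of each motif match (coloured bars, in bases from the annotated start, dashed line) in the RefSeq promoter window of the 21 members with a match, 1 row per gene. Heat shock matches are in heat shock genes except for Asns and Shmt2, and ER elements are in Hspa5, Hsp90b1, Calr and Canx.

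Differences were small in all 3 classes, as for most genes on the array. Of 39 measured members, 1 passed the test (limma, Benjamini-Hochberg adjusted p under 0.05 over all genes), the Hsp110 chaperone gene Hsph1, which was higher. That is 2.56% of the members, against 5.53% of all genes tested; in the higher direction the background was 3.39%, and in the lower direction, with 0 members, 2.15%. At an unadjusted p under 0.05, 3 members were higher and 3 lower, of 39, beside 19.0% of all genes. The 95% confidence interval of the difference lay inside a 1.5-fold change in either direction for each of the 39 members, and for 97.8% of all genes. The widest reaches of any interval were −0.37 (Chac1) and 0.48 (Atf3) in log2. The median absolute log2 difference was 0.068 over the members and 0.071 over all genes.

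**Figure D2:**
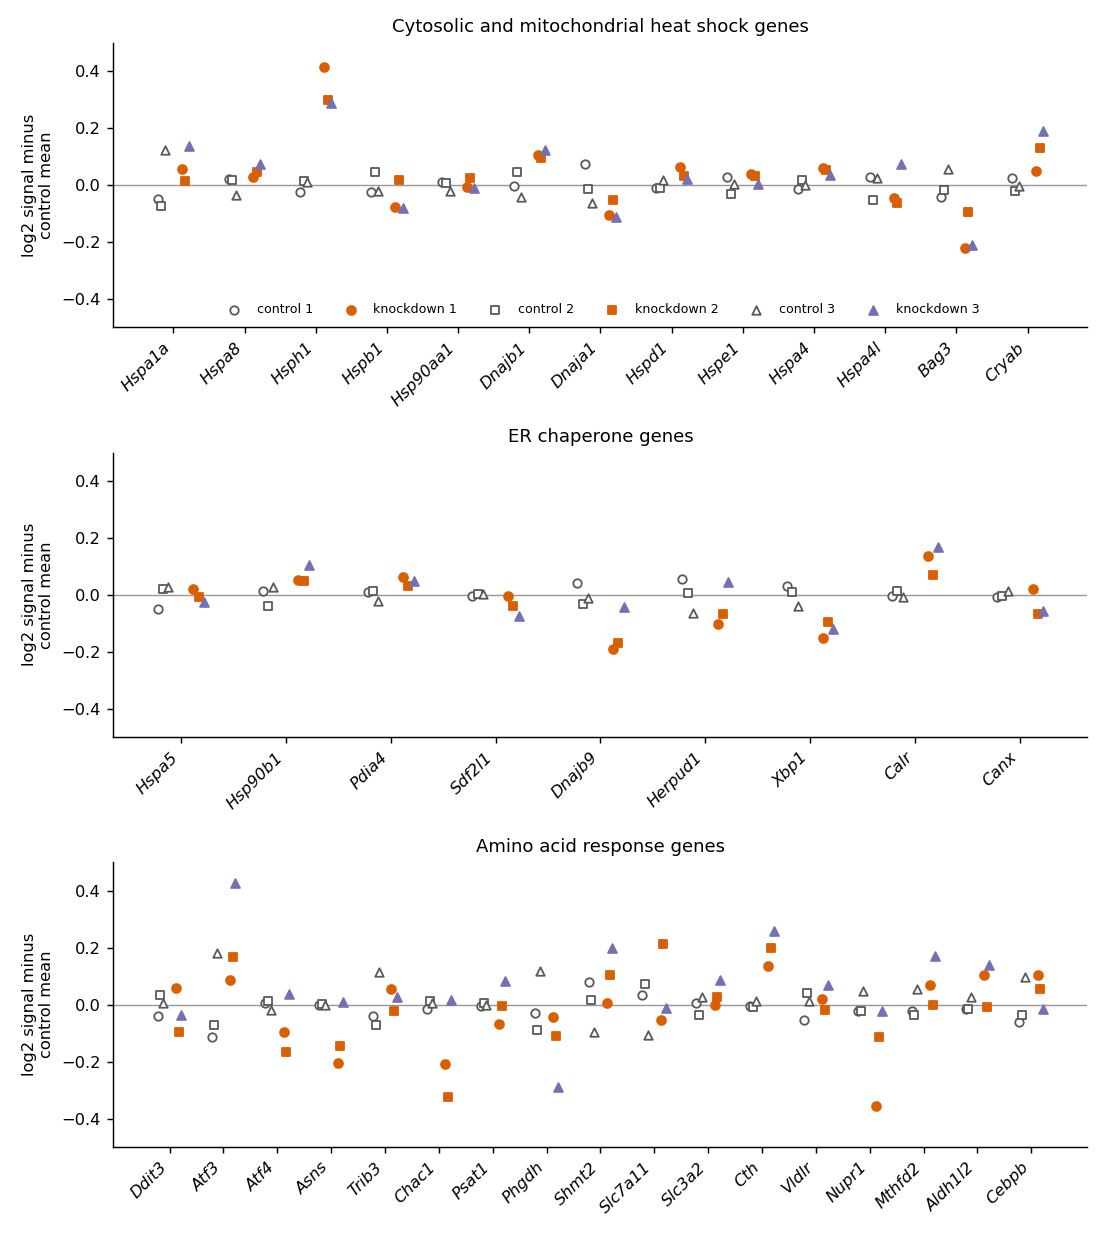
Log2 signal of each measured member on each array minus its mean over the 3 control arrays. Open symbols are controls and filled symbols knockdown arrays, with array 3 of each group as a triangle. Hsph1 stands above its controls on all 3 knockdown arrays, and in the lowest panel knockdown array 3 lies apart from arrays 1 and 2 for Atf4, Asns and Chac1.

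Among the heat shock genes, Hsph1 rose 1.26-fold. Hsph1 encodes Hsp105, a chaperone of the Hsp110 family that recharges Hsp70 by exchanging its nucleotide. Its log2 signal was 10.05, 10.09 and 10.09 on control arrays 1 to 3 and 10.49, 10.37 and 10.36 on knockdown arrays 1 to 3. The groups do not overlap, and the lowest knockdown value lies above the highest control value by more than the range within either group. The log2 difference was 0.33 ± 0.053 SE (95% interval 0.21 to 0.46, limma adjusted p = 0.0148), and an exact permutation test, two-sided, gave p = 0.1, which no split of 3 against 3 can go below. The call did not hold without control array 1, 2 or 3 or knockdown array 2, with limma adjusted p-values of 0.0819, 0.0704, 0.0612 and 0.0536. Without knockdown array 1 or 3 it held, at 0.0395 and 0.0177. The difference itself stayed between 0.29 and 0.36 in these fits.

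The other members of the Hsp110 family had smaller differences. Hspa4 read 11.82, 11.85 and 11.83 in controls and 11.89, 11.89 and 11.87 in knockdown cells, a log2 difference of 0.049 ± 0.044 SE (limma adjusted p = 0.634). Its groups do not overlap but lie very close together. Hspa4l was at −0.012 ± 0.057 SE (limma adjusted p = 0.944), with overlapping groups. Differences between genes were not tested.

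Hsp70 and its Hsp40 partners, which deliver clients to it, did not pass. Dnajb1, the classical heat-inducible Hsp40, read 8.75, 8.80 and 8.71 in controls and 8.86, 8.85 and 8.88 in knockdown cells. All knockdown values lie above all control values, by a log2 difference of 0.11 ± 0.047 SE (limma adjusted p = 0.275). Inducible Hsp70, Hspa1a, read 6.99, 6.96 and 7.16 against 7.10, 7.05 and 7.18, so the groups overlap (0.07 ± 0.068 SE, limma adjusted p = 0.667). Its near-identical copy Hspa1b has no value of its own, and the probes of Hspa1a may not tell the copies apart. Constitutive Hsp70, Hspa8, was at 0.05 and Dnaja1 at −0.09, with limma adjusted p-values of 0.647 and 0.434. Hspd1 and Hspe1, the mitochondrial chaperonin genes whose products fold imported proteins, share a 3-unit heat shock element with each other, and their log2 differences were 0.039 ± 0.044 SE and 0.025 ± 0.045 SE.

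Bag3 had the lowest value of this class. It is a cochaperone that links Hsp70 and small heat shock proteins to selective autophagy, and a textbook HSF1 target. Its signal was 8.23, 8.26 and 8.33 in controls and 8.05, 8.18 and 8.06 in knockdown cells. The groups do not overlap and lie the other way round from Hsph1, with a log2 difference of −0.17 ± 0.056 SE (limma adjusted p = 0.137, unadjusted 0.0153). The small heat shock protein gene Cryab read 7.92, 7.87 and 7.89 against 7.94, 8.02 and 8.08 (0.12 ± 0.053 SE, limma adjusted p = 0.263). Hspb1, another small heat shock protein, was at −0.047, and Hsp90aa1, which encodes inducible Hsp90, at 0.0031. By the brightest probe sets, 9 members of the class were above and 4 below 0, with a median log2 difference of 0.039 beside 0.0048 over all genes. The 3 control and 3 knockdown values did not overlap for 7 of 13, 6 of them higher, where 25.5% of all genes were so separated.

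Several of these genes have processed copies in the genome, and the brightest probe set of Hspa8, Hspb1, Hspd1, Hspe1 or Dnaja1, whose values are given above, may lie at such a copy. In all, 7 members had 9 further probe sets. In a limma fit over all 21640 probe sets, 0 of the 9 passed, where 5.24% of all probe sets did. At an unadjusted p under 0.05 there was 1, the second set of Dnaja1, where 18.6% of all probe sets passed. It read 8.61, 8.70 and 8.69 in controls and 8.54, 8.55 and 8.55 in knockdown cells, a log2 difference of −0.12 ± 0.048 SE in the direction of its brighter set. The further sets of Hspa8 were at 0.12 and 0.11, that of Hspb1 at −0.077, and those of Hspd1 and Hspe1 at −0.0066 and −0.0034, on the other side of 0 from their brighter sets. Hsp90aa1 had 2 more, at 0.035 and 0.027, and Pdia4 of the ER class 1 more, at 0.12.

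**Figure D3:**
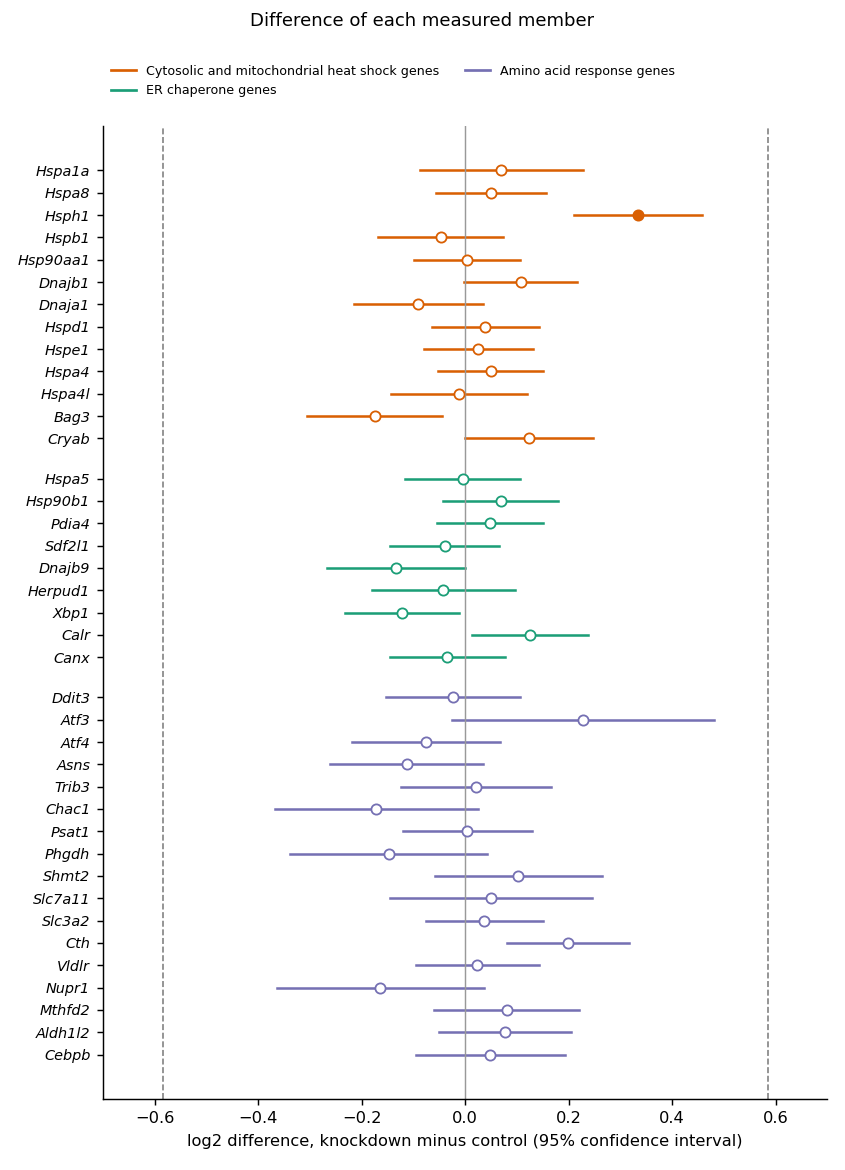
Log2 difference (knockdown minus control) of the 39 measured members with 95% confidence intervals from limma, by class; the filled point is the called gene and dashed lines mark a 1.5-fold change. All intervals lie between the dashed lines, and Hsph1 is the filled point at 0.33.

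ER chaperone genes were measured for 9 of 9, and none was called by limma, beside 5.53% of all genes. At an unadjusted p under 0.05, 1 was higher and 2 were lower, of 9, beside 19.0% of all genes. Calr, the lectin chaperone calreticulin, had the highest value. Its signal was 11.63, 11.65 and 11.63 in controls and 11.77, 11.71 and 11.81 in knockdown cells. The groups do not overlap, with a log2 difference of 0.13 ± 0.048 SE (limma adjusted p = 0.208). Its membrane-bound relative Canx overlapped between groups, at −0.035 ± 0.048 SE.

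Dnajb9, an ER Hsp40 that restrains IRE1, was lowest. It read 9.26, 9.18 and 9.20 in controls and 9.02, 9.04 and 9.17 in knockdown cells, where array 3 lies just under the lowest control. The log2 difference was −0.13 ± 0.057 SE (limma adjusted p = 0.259), and −0.18 without knockdown array 3 (limma adjusted p = 0.0768). Xbp1, the transcription factor spliced by IRE1, read 10.39, 10.37 and 10.32 against 10.21, 10.27 and 10.24. Its groups do not overlap either, with a log2 difference of −0.12 ± 0.047 SE (limma adjusted p = 0.211). These values cover all Xbp1 transcripts on the probe set and do not separate spliced from unspliced forms.

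The main Hsp70 and Hsp90 of the ER did not pass. Hspa5, which encodes BiP, read 11.60, 11.67 and 11.67 in controls and 11.66, 11.64 and 11.62 in knockdown cells. The knockdown values lie within the range of the controls, with a log2 difference of −0.0047 ± 0.048 SE (95% interval −0.12 to 0.11, limma adjusted p = 0.974). Hsp90b1, which encodes GRP94, was at 0.068 ± 0.047 SE and the disulfide isomerase gene Pdia4 at 0.048 ± 0.044 SE, both with knockdown values above all controls. Sdf2l1, an ER cochaperone, was at −0.04, and Herpud1, an adaptor of ER-associated degradation, at −0.042. The 4 genes with an ER stress response element thus had values of −0.0047 (Hspa5), 0.068 (Hsp90b1), 0.13 (Calr) and −0.035 (Canx). For 6 of 9 ER members the groups did not overlap, 3 higher and 3 lower, beside 25.5% of all genes, and the median log2 difference was −0.035.

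Amino acid response genes were measured for 17 of 17, and limma called 0, beside 5.53% of all genes. With the unadjusted p under 0.05 there was 1 gene, beside 19.0% of all genes. That gene was Cth, cystathionine gamma-lyase, which makes cysteine. Its signal was 10.61, 10.61 and 10.63 in controls and 10.75, 10.82 and 10.88 in knockdown cells. All knockdown values lie above the controls, and the log2 difference was 0.20 ± 0.051 SE (limma adjusted p = 0.0694). It was the only 1 of the 17 whose groups do not overlap, or 5.88%, beside the 25.5% of all genes. The median of the class was 0.023, with 11 members above and 6 below 0. Without knockdown array 3 it was 0.012, with 10 above and 7 below.

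The transcription factors of the response were spread around 0. Atf4 read 8.74, 8.75 and 8.71 in controls and 8.64, 8.57 and 8.77 in knockdown cells. Knockdown arrays 1 and 2 lie below all controls and array 3 above them, so the log2 difference was −0.076 ± 0.061 SE (limma adjusted p = 0.588). ATF4 protein is controlled mainly by translation, which these arrays do not measure. Ddit3, which encodes the pro-apoptotic factor CHOP, was at −0.024, and Cebpb, a dimer partner of ATF4, at 0.049.

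Atf3, a factor induced by many stresses, had the highest value of the class and the widest interval. It read 6.44, 6.48 and 6.74 in controls and 6.64, 6.72 and 6.98 in knockdown cells. Array 3 is the highest of its group in both, the groups overlap, and the log2 difference was 0.23 ± 0.11 SE (limma adjusted p = 0.318). Without knockdown array 3 it was 0.13 (limma adjusted p = 0.47). Trib3, a pseudokinase that curbs ATF4, was at 0.021 with overlapping groups.

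Asns and Chac1 shared the array pattern of Atf4, and Nupr1 shared it in part. Asns makes asparagine and is a standard readout of ATF4. Its control values were 11.74, 11.74 and 11.74, and its knockdown values 11.53, 11.59 and 11.75. Arrays 1 and 2 thus lie well under a very tight control group while array 3 lies just above it. Chac1, which degrades glutathione, read 7.45, 7.47 and 7.47 in controls and 7.25, 7.14 and 7.48 in knockdown cells. It had the lowest value of the class, −0.17 ± 0.084 SE (limma adjusted p = 0.332). Nupr1, a small stress-induced chromatin protein, read 7.24, 7.24 and 7.31 against 6.91, 7.15 and 7.24, so that array 3 equals the lower controls. Knockdown array 2 of Nupr1 lies nearer to array 3 than to array 1.

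These were the 4 members of the class with knockdown arrays 1 and 2 below all controls, and in 0 of the 4 was array 3 below them as well. Array 3 was below them too in 3 of the 4 ER members and the 1 heat shock member with arrays 1 and 2 below all controls, and in 52.7% of the 4086 such genes among all genes. Without knockdown array 3 the log2 differences became −0.13 for Atf4, −0.18 for Asns, −0.27 for Chac1 and −0.23 for Nupr1. Chac1 was then called by limma (adjusted p = 0.0346, against 6.53% of all genes called in that fit), while Asns was at 0.0732, Nupr1 at 0.14 and Atf4 at 0.154. Array 3 gave the highest of the 3 knockdown values for 12 of 17 members of the class, beside 48.7% of all genes. The same array had the higher upper quartile given above, and whether the cells or the array differed was not tested. These 4 genes were singled out after their values were seen.

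**Figure D4:**
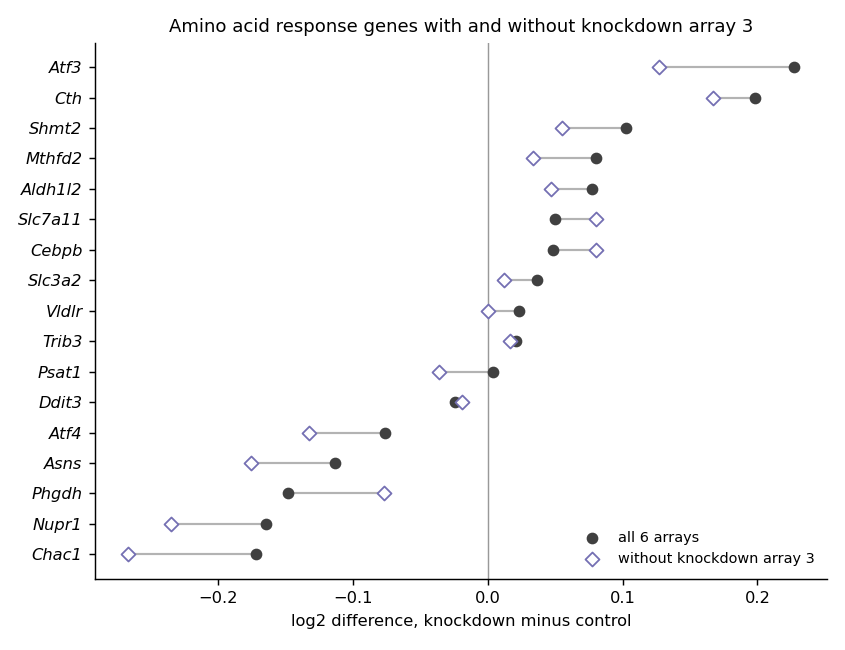
Log2 difference (knockdown minus control) of the 17 amino acid response genes with all 6 arrays (filled circles) and without knockdown array 3 (open diamonds). Chac1, Nupr1, Asns and Atf4 move to lower values without that array, and Atf3 moves from 0.23 to 0.13.

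Of the enzymes of serine and one-carbon metabolism, 0 of 5 passed, beside 5.53% of all genes. The groups of all 5 overlap, where those of 25.5% of all genes did not. Phgdh, the first enzyme of serine synthesis, read 8.04, 7.98 and 8.19 in controls and 8.02, 7.96 and 7.78 in knockdown cells. Knockdown array 1 lies among the controls, array 2 just under them and array 3 well under them. The log2 difference was −0.15 ± 0.082 SE (limma adjusted p = 0.398), and −0.077 without knockdown array 3. Psat1, the next enzyme, was at 0.004 ± 0.054 SE (95% interval −0.12 to 0.13), and at −0.036 without knockdown array 3. The mitochondrial folate enzymes Shmt2, Mthfd2 and Aldh1l2 were at 0.10, 0.08 and 0.078, with limma adjusted p-values of 0.499, 0.551 and 0.522. Without knockdown array 3 they were at 0.055, 0.034 and 0.047.

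The amino acid transporter genes among the members, Slc3a2 and Slc7a11, overlapped between groups as well, where 25.5% of all genes did not. Slc3a2, the heavy chain of several transporters, was at 0.037 ± 0.049 SE. Slc7a11, the cystine transporter, was at 0.05 ± 0.084 SE on a dim probe set with a mean log2 signal of 4.01. Aldh1l2 at 4.81 and Vldlr, a lipoprotein receptor gene induced by ATF4, at 5.47 were also dim, and Vldlr was at 0.023. Of the 8 genes with a C/EBP-ATF element, Asns, Chac1, Nupr1 and the ER member Herpud1 were below 0 and Atf3 above it. Trib3, Vldlr and Slc7a11, at 0.021, 0.023 and 0.05, were above 0 with all arrays. Trib3 and Vldlr went below 0 after repeated quantile normalization or median centring, Slc7a11 without control array 3 or knockdown array 2, Trib3 also without control array 2 and Vldlr also without control array 1.

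Other genes of the same pathways came from lists of textbook members. Of 54 other cytosolic and mitochondrial chaperone genes, 52 were measured, 0 called higher and 1 lower, or 1.92% beside 5.53% of all genes, with a median log2 difference of −0.012. Hspa12a, a distant relative of Hsp70, fell. Its signal was 6.61, 6.53 and 6.56 in controls and 6.30, 6.19 and 6.36 in knockdown cells, with a log2 difference of −0.29 ± 0.059 SE (limma adjusted p = 0.036). The 8 subunits of the CCT chaperonin, mitochondrial Hspa9, the Hsp70-Hsp90 adaptor Stip1 and the heat shock factor Hsf2 were among the 51 that did not pass. The groups did not overlap for 14 of the 52, 6 higher and 8 lower, or 26.9% beside 25.5% of all genes.

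Of 46 other ER stress genes, 45 were measured, 1 higher and 0 lower, or 2.22% beside 5.53% of all genes, with a median of 0.029. Derl3, a channel component of ER-associated degradation, rose. It read 8.04, 7.99 and 7.95 in controls and 8.30, 8.35 and 8.66 in knockdown cells, where array 3 is highest. The log2 difference was 0.44 ± 0.095 SE (limma adjusted p = 0.0398), and 0.33 without knockdown array 3 (limma adjusted p = 0.019). The groups also did not overlap for 16 of the 45, 9 higher and 7 lower, or 35.6% beside 25.5% of all genes.

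Of 50 other amino acid response genes, 45 were measured, 3 higher and 1 lower, or 8.89% called beside 5.53% of all genes, with a median of 0.0051. Ddit4, an inhibitor of the growth kinase mTORC1, rose by 0.38 ± 0.077 SE (limma adjusted p = 0.0358), from 7.65, 7.70 and 7.86 to 8.07, 8.03 and 8.23. Aldh18a1, which starts proline synthesis, rose by 0.29 ± 0.061 SE (limma adjusted p = 0.0372), and the tyrosyl-tRNA synthetase gene Yars by 0.22 ± 0.044 SE (limma adjusted p = 0.0338). Mthfd1l, a mitochondrial enzyme that releases formate, fell by 0.21 (SE 0.044, limma adjusted p = 0.0399), from a mean log2 signal of 9.17 to 8.97. Of the amino acid transporter genes in this list, none was called. Slc7a1, Slc1a4 and Slc6a9 had knockdown values above all controls and Slc7a3 below them, while Slc7a5, Slc38a1, Slc38a2 and Slc1a5 overlapped between groups.

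None of the 6 calls in these wider lists held with every array left out in turn. Derl3 held without knockdown array 1 or 3, Hspa12a, Yars and Mthfd1l without knockdown array 3 alone, Ddit4 without control array 3 alone, and Aldh18a1 in none of the 6 fits of 5 arrays. Their highest limma adjusted p-values in such fits were 0.153 (Hspa12a, without control array 1), 0.134 (Derl3, without control array 3), 0.143 (Ddit4, without control array 1), 0.144 (Yars, without control array 1), 0.15 (Aldh18a1, without control array 1) and 0.156 (Mthfd1l, without control array 1). Without knockdown array 3, Hspb8 and Slc7a3 were called lower too, at log2 differences of −0.34 and −0.21 (limma adjusted p = 0.0364 and 0.0448). That fit called 2 higher and 4 lower of 142 wider genes, beside 6.53% of all genes.

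**Figure D5:**
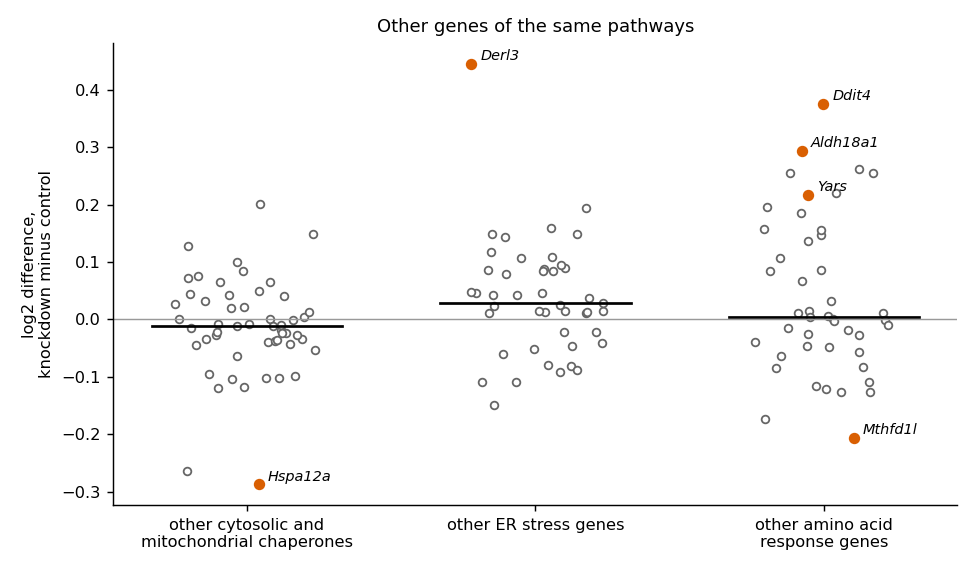
Log2 difference (knockdown minus control) of the measured genes of the 3 wider lists, 1 point per gene; filled points are the 6 called genes, named beside them, and black lines the list medians. The 3 medians lie near 0, Derl3 is highest at 0.44 and Hspa12a lowest at −0.29.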

How the data were processed

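Expression was measured on 6 single-colour arrays, 3 of control and 3 of Trim71 knockdown cells. The authors deposited log2 values per probe set; RMA and affy are named per the submitters' processing notes; their versions were not given in the sources used here. That method quantile normalizes arrays, so a change shared by most genes cannot be seen. Of 34760 probe sets, 21640 had 1 symbol in GEO's platform annotation, 1321 several and 11799 none, and 0 symbols changed through RefSeq. For each of 19937 genes the brightest such probe set was used, with no intensity filter. Groups were compared with limma 3.58.1 in R 4.3.3 (group alone), tested on simulated data first, with Benjamini-Hochberg adjustment over all genes and a call at adjusted p under 0.05. Permutation tests used scipy 1.17.1, and plots matplotlib 3.10.9.

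Members and lists were chosen with earlier results of these data known. Named are all measured members and every called gene of the wider lists. Further genes of those lists were named outside this plan. Values on each array were planned for called members and for those with the highest or lowest value of a class, and other members given by array were chosen after their values were seen. Fits were repeated with a replicate block, without each array, on genes at or above the median signal (brighter genes), after repeated quantile normalization or median centring, with array weights or a trended and robust prior, and with probe sets averaged. The deviations of same-numbered arrays from their group means had correlations of −0.017, −0.15 and −0.24. With so few arrays these do not settle whether the numbers pair them, and the labels do not say.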

Additional observations from a re-analysis of the deposited data

How the results depend on the processing

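Hsph1 kept its direction in all 13 alternatives, between 0.29 and 0.36, and its call in 8, with limma adjusted p-values from 0.000135 to 0.0819. Its class had 0 members higher with the replicate block, where Hsph1 was at an adjusted p of 0.0747, and 0 to 1 with an array left out. Other members were called in some alternatives, in each case with the same sign as in the text. With the brighter genes alone there was 1 heat shock member lower (Bag3) and 1 amino acid response member higher (Cth). The trended and robust prior gave 1 ER member higher (Calr), 1 lower (Xbp1) and 1 amino acid response member higher (Cth). Repeated quantile normalization gave 1 amino acid response member higher (Cth), and array weights gave 1 higher (Cth) and 1 lower (Chac1). With an array left out 0 to 1 amino acid response members were lower (Chac1). The fits that added member calls also called more of all genes than the main fit, with its 675 higher and 428 lower. Brighter genes gave 1124 and 766, from a smaller set of genes tested. The trended and robust prior gave 1213 and 854, array weights 1114 and 1058, and repeated quantile normalization 779 and 763. Without knockdown array 3, where Chac1 was called, 6.53% of all genes were called, beside 5.53% in the main fit. The cause of these changes was not tested. Of 39 members, 9 changed sign in some alternative, all within 0.05 of 0 in the text, and 30 did not.

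Of the 6 calls in the wider lists, 5 were lost with the replicate block (adjusted p 0.0734 to 0.148) and Ddit4 held at 0.0499, and arrays centred on their medians took Yars to 0.0551. Over all genes, 675 were higher and 428 lower. The replicate block gave 171 and 108, and arrays left out in turn gave 148 to 603 higher and 101 to 699 lower. Brighter genes gave 1124 and 766, with only genes at or above the median signal tested. The trended and robust prior gave 1213 and 854, and array weights 1114 and 1058. Repeated quantile normalization gave 779 and 763, arrays centred on their medians 527 and 616, and the mean of probe sets 670 and 425. Dim probe sets such as that of Slc7a11 limit what could be seen.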
